A study of Mus musculus with 12 samples.

Results

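The 39 genes described here encode nuclear subunits of respiratory complexes II, III, IV and V, though not all of them, and cytochrome c. They were listed by name from textbook membership of those complexes. Another 14 genes for alternative or additional subunits are given further below. The list was made with earlier results of these data known. Of these, 38 were measured among 19934 genes with a probe set of their own. For each gene the probe set with the highest mean over all arrays was used. Cox7c, a subunit of complex IV, has 3 probe sets that also carry a second gene's symbol, and it is not analysed here. The measured genes comprise 4 subunits of complex II, 9 of complex III, Cycs, 9 of complex IV and 15 of complex V. Several Atp5 genes have since been renamed, and the older symbols are kept here (Atp5l is now Atp5mg, Atp5o is Atp5po, Atp5f1 is Atp5pb and Atp5g2 is Atp5mc2).

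The inner mitochondrial membrane holds the respiratory chain. Complex II (succinate dehydrogenase) takes electrons from succinate, complex III passes them from ubiquinol to cytochrome c, and complex IV hands them to oxygen. Complexes III and IV pump protons, and complex V, the ATP synthase, uses the returning protons to make ATP. The kidney depends on this chain heavily, above all the proximal tubule, whose solute transport is driven by oxidative metabolism. Methylmalonyl-CoA mutase, encoded by Mut, sits just upstream of complex II, since its product, succinyl-CoA, is converted to succinate in the citric acid cycle. Its loss causes methylmalonic acidemia, a disease in which the kidney is often damaged.

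Kidney RNA was measured on Affymetrix mouse gene arrays in 12 samples from female C57BL/6 mice. There were 4 mutants (Mut-/-;TgINS-Alb-Mut), 4 heterozygotes (Mut+/-) and 4 wild types (Mut+/+), and all 3 groups had eaten a high-protein diet for 2 months. The transgene, which supplies Mut under the albumin promoter and is known to act in liver, is named for the mutants alone, so the loss of Mut and the transgene cannot be told apart. The labels give no age and do not state that each array came from a separate animal, so p-values here measure the spread between these arrays. Levels are log2 RMA signal, and a difference of 1 is a doubling of the signal. A gene is called where limma's adjusted p, taken over all 19934 genes, was below 0.05. The mutants and the wild types each enter more than 1 comparison, so the comparisons share samples.

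The probe set for Mut read 8.36 ± 0.12 in mutants, 9.92 ± 0.04 in heterozygotes and 10.53 ± 0.06 in wild types (SD, n = 4 arrays each), in the order of the labels. Array medians ran from 7.17 to 7.23, and correlations between arrays from 0.982 to 0.995. Mutant replicate 1 stood apart in the genes described here: it was the highest of all 12 arrays for 26 of the 38 subunit genes (68.4%), against 8.47% of all genes. It lay above the mean of the other mutants for 36 of the 38, with a median difference of 0.159, while the median over all genes was -0.0096. The same array was highest for 14 of 34 complex I subunits and 8 of 18 citric acid cycle enzymes. It was highest for 9 of 36 assembly factors, 3 of 14 other subunits and isoforms and 0 of 15 transcriptional regulators of the chain. With 15 genes, 0 is not far from the 8.47% of all genes. Medians and counts of direction over the subunit genes are therefore given with and without this array. In whole kidney, fewer cells of a type and less RNA per cell cannot be told apart.

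In mutants against wild types, 6 of the 38 subunit genes were called (15.8%), against 9.66% of all genes, with 4 higher and 2 lower. At an unadjusted p below 0.05 there were 13 (34.2%, against 24.4% of all genes). Atp5l, Atp5o and Atp5g2 of the ATP synthase and Cox4i1 of complex IV rose by 16.3% to 49.3%. Uqcrb of complex III and Atp5f1 of the ATP synthase fell. The called share was 10.5% higher and 5.26% lower, where all genes divided into 2.96% higher and 6.69% lower. Most genes on the array are dimmer than these subunits: in a fit limited to the 15932 genes with a mean of at least 6 in some group, 13.6% of all genes were called and the subunits' share was again 15.8%. Over all 38 the median log2 difference was 0.026, beside 0.0044 over all genes, with 21 values above 0 and 17 below. Without mutant replicate 1 the sign of the median turned: it was -0.025, beside 0.0079 over all genes, with 17 values above 0 and 21 below. Mutant arrays did not overlap wild-type arrays for 6 genes that were higher (15.8%, against 5.35% of all genes) and 4 that were lower (10.5%, against 9.4%).

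**Figure D1:**
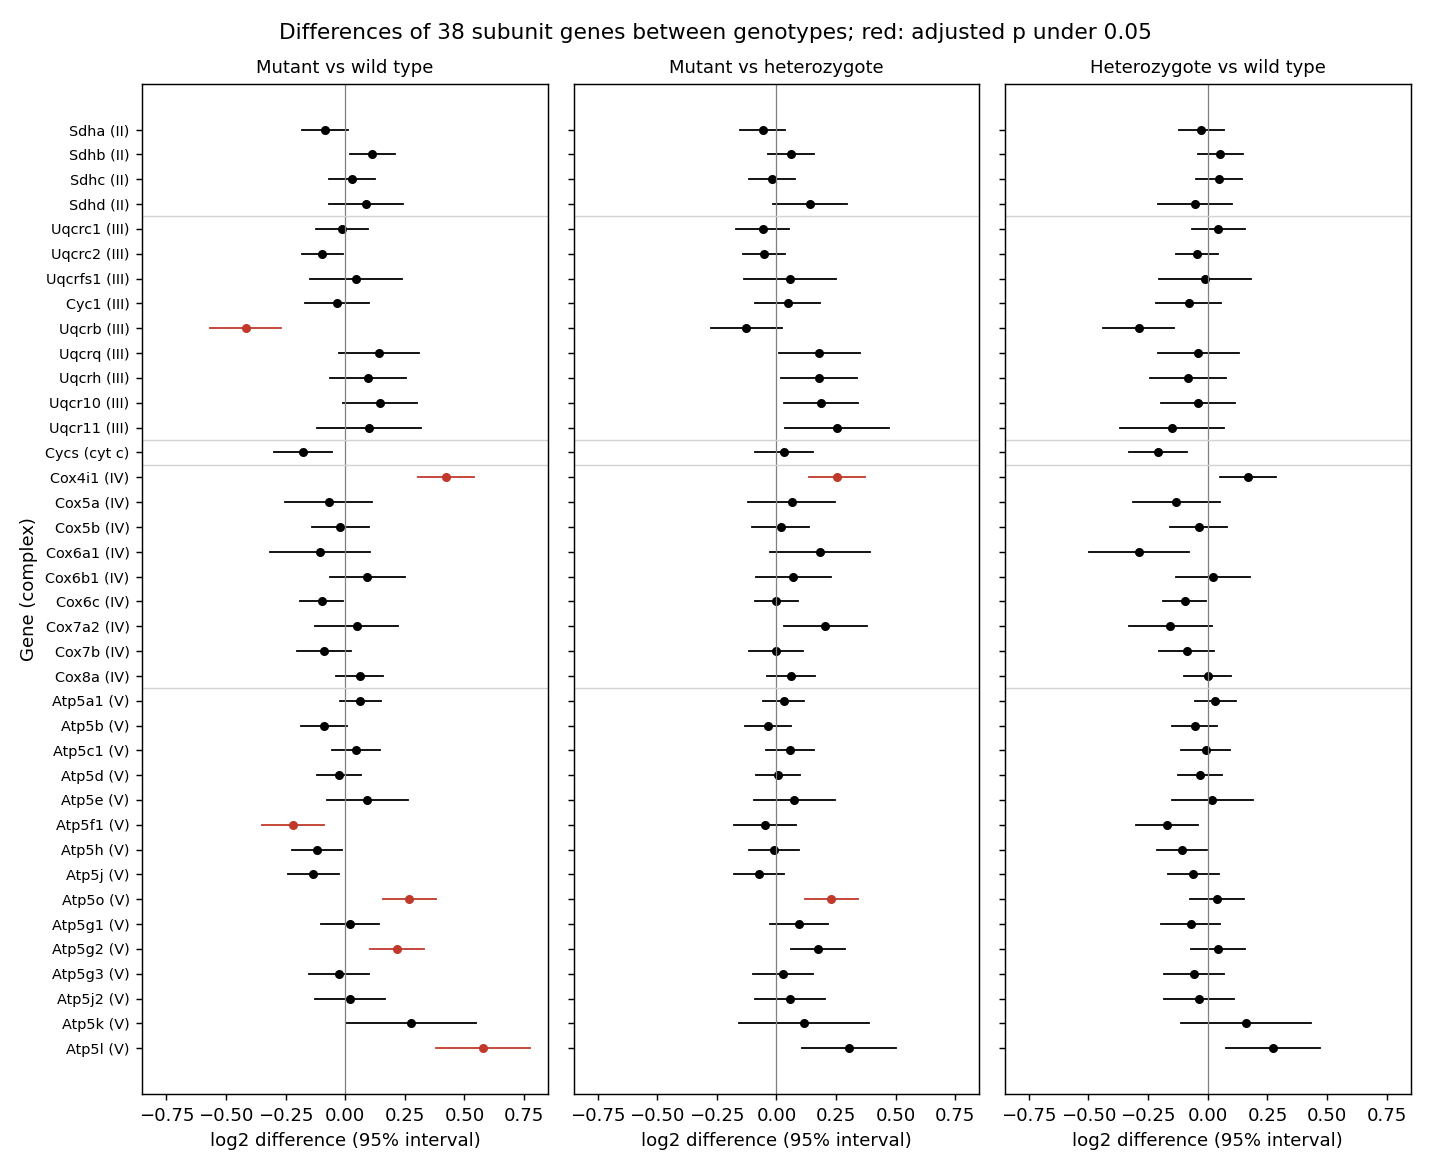
Log2 difference of each of the 38 subunit genes (rows, by complex) in mutants against wild types, mutants against heterozygotes and heterozygotes against wild types, with 95% intervals from limma; red marks adjusted p below 0.05. In mutants against wild types 4 red points lie above 0 and 2 below, from Atp5l at 0.58 to Uqcrb at -0.42, and the remaining genes lie between -0.18 and 0.28.

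The 32 subunit genes that were not called in mutants against wild types had differences from -0.18 (Cycs) to 0.28 (Atp5k). For 34 of all 38 genes the 95% interval lay within 0.5 either side of 0, and the median interval reached 0.122 to each side of its value. The data therefore bound most of these differences at well under a doubling, without showing that they are 0.

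Complex II is the nearest to Mut in metabolism, and none of its 4 subunits was called in any of the 3 comparisons. The subunit with the smallest p in mutants against wild types was Sdhb, the iron-sulfur subunit. It read 11.82, 11.75, 11.80 and 11.76 in the mutants, 11.67, 11.77, 11.73 and 11.71 in the heterozygotes, and 11.63, 11.69, 11.63 and 11.71 in the wild types. The mutants lay above the wild types without overlap, by 0.11 ± 0.04 (SE), and limma's adjusted p was 0.125. Sdha, the catalytic flavoprotein, differed by -0.08 (adjusted p = 0.267 by limma), and the membrane anchors Sdhc and Sdhd by 0.03 and 0.09. Sdhd had the smallest p of the complex in mutants against heterozygotes. It read 11.52, 11.19, 11.29 and 11.29 in the mutants and 11.16, 11.23, 11.15 and 11.18 in the heterozygotes, a difference of 0.14 (limma's adjusted p = 0.382) in which mutant replicate 1 was the highest of the 8 arrays. In the wild types Sdhd read 11.09, 11.27, 11.24 and 11.35, overlapping both other groups.

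Complex III held 1 called gene of 9, where 9.66% of all genes were called. This gene was Uqcrb, a small accessory subunit at the ubiquinone-binding side of the complex. Uqcrb read 12.54, 12.25, 12.28 and 12.48 in the mutants, 12.47, 12.58, 12.51 and 12.50 in the heterozygotes, and 12.69, 12.80, 12.89 and 12.84 in the wild types. Every mutant and every heterozygote lay below every wild type, while mutants and heterozygotes overlapped. Uqcrb fell by 0.42 ± 0.07 (SE) in mutants against wild types, that is 1.34-fold lower (limma's adjusted p = 0.0028). Its difference in heterozygotes against wild types was -0.29 (limma's adjusted p = 0.142), and in mutants against heterozygotes -0.13 (limma's adjusted p = 0.429). All 3 probe sets that carry its name were called in mutants against wild types, with differences between -0.47 and -0.42.

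The other 8 subunits of complex III were not called, and they lay on both sides of 0. Uqcrc2, a core protein, read 12.25, 12.22, 12.20 and 12.25 in the mutants, 12.27, 12.29, 12.28 and 12.29 in the heterozygotes and 12.27, 12.32, 12.36 and 12.35 in the wild types. Its mutants lay below both other groups without overlap, by a difference of -0.10 from wild types (limma's adjusted p = 0.163). The catalytic subunits, cytochrome c1 (Cyc1) and the Rieske iron-sulfur protein (Uqcrfs1), differed by -0.03 and 0.05, and the core protein Uqcrc1 by -0.01. The small subunits Uqcrq, Uqcrh, Uqcr10 and Uqcr11 differed by 0.14, 0.10, 0.14 and 0.10, in the opposite direction to Uqcrb. Uqcr10, which had the smallest p of the complex in mutants against heterozygotes, read 10.71, 10.33, 10.46 and 10.57 in the mutants, 10.37, 10.37, 10.24 and 10.33 in the heterozygotes and 10.30, 10.42, 10.43 and 10.32 in the wild types. Mutant replicate 1 was its highest value, and the adjusted p against heterozygotes was 0.215 by limma.

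Cycs, the soluble carrier between complexes III and IV, was not called in any comparison. It read 12.84, 12.65, 12.64 and 12.78 in the mutants, 12.61, 12.73, 12.69 and 12.75 in the heterozygotes and 12.87, 12.86, 12.98 and 12.90 in the wild types. All 8 mutant and heterozygous arrays lay below all 4 wild types. The differences from wild type were -0.18 in mutants (limma's adjusted p = 0.0653) and -0.21 in heterozygotes (limma's adjusted p = 0.189), and the difference between mutants and heterozygotes was 0.03. It passed the threshold in mutants against wild types under 3 alternatives: without mutant replicate 1 (-0.215, limma's adjusted p = 0.0298), with quantile scaling (-0.234, limma's adjusted p = 0.0185) and with a trended, robust variance prior (limma's adjusted p = 0.0396). Of its 3 probe sets, the second brightest is annotated with the same sequence records as the brightest. It also had no overlap with wild types, at -0.19 in mutants and -0.23 in heterozygotes. The third carries other records and was far dimmer, at a mean of 6.84, and it overlapped in both comparisons. Its differences were -0.14 in mutants and -0.07 in heterozygotes (limma's adjusted p = 0.293 and 0.768).

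Complex IV held 1 called gene of 9, where 9.66% of all genes were called. This gene was Cox4i1, the common isoform of subunit 4 and the largest of the nuclear-encoded subunits. Cox4i1 read 11.90, 11.83, 11.77 and 11.86 in the mutants, 11.61, 11.65, 11.60 and 11.48 in the heterozygotes, and 11.53, 11.41, 11.36 and 11.37 in the wild types. The mutants lay above every other array, and the heterozygotes overlapped the wild types only through wild type replicate 1 and heterozygote replicate 4. Cox4i1 was 0.42 ± 0.05 (SE) higher in mutants than in wild types, or 1.34-fold (limma's adjusted p = 6.1e-04). It was 0.25 higher in mutants than in heterozygotes (limma's adjusted p = 0.027), and heterozygotes exceeded wild types by 0.17 (limma's adjusted p = 0.268). Cox4i1 is measured by 1 probe set, so its change has no second probe set to set beside it.

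The other 8 measured subunits of complex IV were not called. Cox6c read 13.60, 13.52, 13.57 and 13.62 in the mutants, 13.60, 13.57, 13.58 and 13.56 in the heterozygotes and 13.65, 13.66, 13.72 and 13.66 in the wild types, so that both other groups lay below the wild types without overlap. Its difference in mutants against wild types was -0.10 (limma's adjusted p = 0.17). Cox5a, Cox5b, which binds zinc, Cox6a1, the non-muscle isoform, and Cox7b differed by -0.07, -0.02, -0.10 and -0.09. Cox6b1, Cox7a2 and Cox8a differed by 0.09, 0.05 and 0.06. The widest lower bound among the uncalled subunit genes was that of Cox6a1, whose interval reached -0.31.

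**Figure D2:**
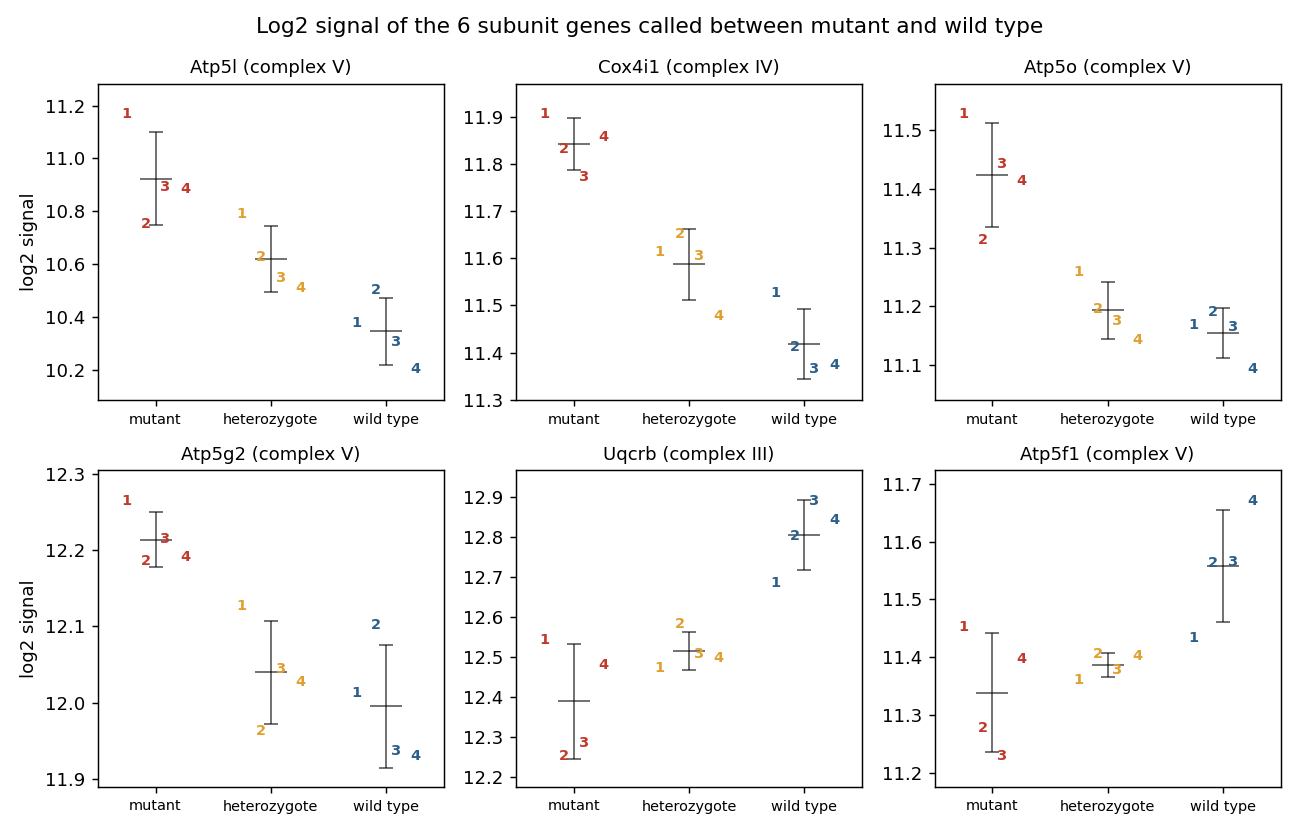
Log2 signal on each of the 12 arrays for the 6 subunit genes called in mutants against wild types; digits are replicate numbers and bars the mean ± SD of 4 arrays. Cox4i1, Atp5o, Atp5g2 and Atp5l have all mutants above all wild types, Uqcrb has all mutants below them, and for Atp5f1 mutant replicate 1 (11.45) overlaps wild type replicate 1 (11.43).

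The ATP synthase has 15 of the 38 measured genes and held 4 of the 6 called ones, where 9.66% of all genes were called. Among genes with a mean of at least 6 in some group the share was 13.6%. The call of Atp5f1 was weak, as described below, and whether calls gather in this complex was not tested. The head and central stalk genes, Atp5a1 (alpha), Atp5b (catalytic beta), Atp5c1 (gamma), Atp5d (delta) and Atp5e (epsilon), were not called and differed by -0.09 to 0.09 in mutants against wild types. With quantile scaling Atp5b differed by -0.138 and passed the threshold (limma's adjusted p = 0.0497). Atp5a1 was 12.79 ± 0.02 in the mutants and 12.73 ± 0.03 in the wild types (SD, n = 4 each), without overlap, and its adjusted p was 0.37 by limma.

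The peripheral stalk holds the head against the turning rotor, and 2 of its 4 genes were called in opposite directions. Atp5o encodes OSCP, which joins the stalk to the head. It read 11.53, 11.31, 11.44 and 11.41 in the mutants, 11.26, 11.20, 11.18 and 11.14 in the heterozygotes, and 11.17, 11.19, 11.17 and 11.09 in the wild types. The mutants lay above all other arrays, while heterozygotes and wild types overlapped. The rise in mutants was 0.27 ± 0.05 (SE) over wild types, 1.21-fold (limma's adjusted p = 0.00664), and 0.23 over heterozygotes (limma's adjusted p = 0.0347). Atp5f1 encodes subunit b, the long arm of the stalk. It read 11.45, 11.28, 11.23 and 11.40 in the mutants, 11.36, 11.41, 11.38 and 11.40 in the heterozygotes, and 11.43, 11.56, 11.56 and 11.67 in the wild types. Atp5f1 was 1.16-fold lower in mutants than in wild types, a log2 difference of -0.22 ± 0.06 (SE), with limma's adjusted p at 0.0375. This call was weak, and the groups overlapped. The second probe set, annotated with other sequence records than the brightest, gave -0.10 (limma's adjusted p = 0.278). The call was lost under 13 of 21 alternative settings. Among them were leaving out mutant replicate 2 or 3, heterozygote replicate 1, 3 or 4, or wild type replicate 2, 3 or 4, which gave differences from -0.26 to -0.18 over all arrays left out in turn. The remaining stalk genes, Atp5h (subunit d) and Atp5j (F6), differed by -0.12 and -0.13 and were not called. Without mutant replicate 1, Atp5j differed by -0.17 and passed the threshold (limma's adjusted p = 0.0376).

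The rotor ring is built from many copies of subunit c, which Atp5g1, Atp5g2 and Atp5g3 encode as a single mature protein behind different mitochondrial import sequences. Atp5g2 read 12.26, 12.19, 12.21 and 12.19 in the mutants, 12.13, 11.96, 12.04 and 12.03 in the heterozygotes, and 12.01, 12.10, 11.94 and 11.93 in the wild types. Every mutant lay above every other array, by 0.22 ± 0.05 (SE) or 1.16-fold over the wild types (limma's adjusted p = 0.0199) and by 0.17 over the heterozygotes (limma's adjusted p = 0.109). All 3 of its probe sets were called in mutants against wild types, from 0.22 to 0.25, but without wild type replicate 3 or wild type replicate 4 its adjusted p was 0.058 or 0.0672 by limma. Atp5g1 read 12.56, 12.33, 12.47 and 12.42 in the mutants, 12.36, 12.41, 12.30 and 12.33 in the heterozygotes and 12.35, 12.50, 12.45 and 12.40 in the wild types. Its groups overlapped, and the difference in mutants against wild types was 0.02, with an interval from -0.10 to 0.14. Atp5g3 read 12.65, 12.36, 12.52 and 12.52 in the mutants, 12.52, 12.51, 12.47 and 12.45 in the heterozygotes and 12.51, 12.61, 12.57 and 12.48 in the wild types. Its groups overlapped too, and its difference was -0.03, with an interval from -0.15 to 0.10. Whether Atp5g2 differs from its paralogs in its response was not tested.

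The promoters of these 3 genes are shown because they drive the same mature protein and their letters differ. Each line gives the 100 bases that end 1 base before the RefSeq start of the gene (GRCm38.p6, all 3 on the minus strand), and capitals mark matches to the motifs named after the sequences.
Atp5g1, chr11:96075632-96075731: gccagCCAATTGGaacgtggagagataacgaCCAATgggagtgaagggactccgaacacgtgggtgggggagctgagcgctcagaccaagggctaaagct
Atp5g2, chr15:102671048-102671147: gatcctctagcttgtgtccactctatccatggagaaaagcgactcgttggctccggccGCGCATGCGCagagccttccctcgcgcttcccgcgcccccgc
Atp5g3, chr2:73911327-73911426: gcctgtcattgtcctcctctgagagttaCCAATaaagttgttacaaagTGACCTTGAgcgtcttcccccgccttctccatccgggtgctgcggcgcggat
The Atp5g2 window holds the core letters bound by NRF-1, a regulator of respiratory genes, which are GCGCA and GCGC with any 1 base between. The Atp5g1 window holds CCAAT on both strands, and in its first match CCAAT and its complement overlap. The Atp5g3 window holds 1 CCAAT and, on the reverse strand, TCAAGGTCA, the letters bound by estrogen-related receptors.

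Longer windows, from 250 bases before to 50 bases after the start, were searched on both strands in the 31 listed genes with a RefSeq entry and in 27025 genes in all. The NRF-1 letters were found in 10 of the 31 (32.3%), against 5.19% of all genes. These were Sdha, Sdhd, Uqcrc1, Cox6a1, Atp5c1, Atp5g2, Atp5g3, Atp5h, Atp5k and Atp5o. CCGGAAG, the core of ETS-family sites, was in 12 (38.7%), against 9.93% of all genes. TCAAGGTCA was in 2 (Sdhd and Atp5g3; 6.45%), against 0.466%. AANATGGC, the core for YY1, was in 5 (16.1%), against 6.96%, and CCAAT in 17 (54.8%), against 41.1%. The windows of the listed genes had a median GC content of 57.3%, against 52.7% for all genes, and its part in the motif shares was not tested. A match describes letters in a window and is not a measured binding site.

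The membrane subunits of the ATP synthase dimer are e, f and g, encoded by Atp5k, Atp5j2 and Atp5l. Atp5l, subunit g, read 11.17, 10.75, 10.89 and 10.88 in the mutants, 10.79, 10.63, 10.55 and 10.51 in the heterozygotes, and 10.38, 10.50, 10.30 and 10.20 in the wild types. All mutants and all heterozygotes lay above all wild types, and mutants and heterozygotes overlapped through mutant replicate 2 and heterozygote replicate 1. The difference between mutants and wild types was 0.58 ± 0.09 (SE), a 1.49-fold rise with an interval from 0.38 to 0.78 (limma's adjusted p = 0.002). Heterozygotes differed from wild types by 0.27 (limma's adjusted p = 0.28) and from mutants by 0.30 (limma's adjusted p = 0.106). All 6 probe sets named Atp5l were called in mutants against wild types and had no overlap between those groups, with differences from 0.57 to 0.67. Heterozygotes lay above wild types without overlap in 3 of the 6, with differences from 0.26 to 0.36 over all 6. Atp5j2 differed by 0.02. Atp5k, subunit e, had the largest spread of the subunit genes in each group (SD 0.239 in mutants, 0.185 in heterozygotes and 0.197 in wild types). Its difference was 0.28 with an upper bound of 0.55 (limma's adjusted p = 0.198), the widest upper bound among the subunit genes that were not called.

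**Figure D3:**
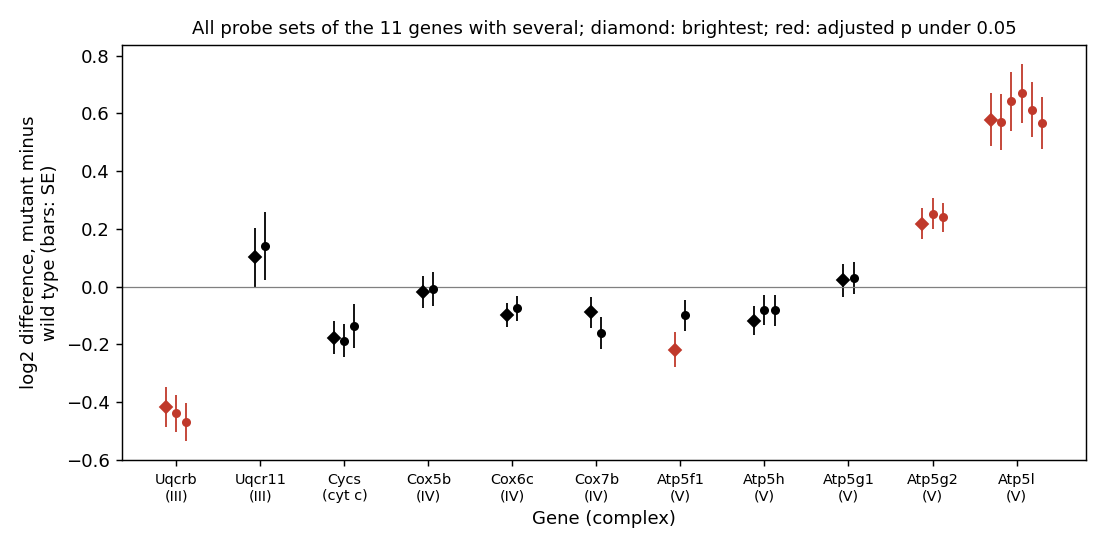
Log2 difference (± SE) of mutants against wild types for every probe set of the 11 subunit genes that have more than 1; the diamond is the brightest probe set, used elsewhere, and red marks adjusted p below 0.05. The 6 probe sets of Atp5l, 3 of Uqcrb and 3 of Atp5g2 are all red, while of the 2 for Atp5f1 the brighter alone is.

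The 38 genes have 57 probe sets in all, and 27 genes have 1. Subunit genes of the respiratory chain have many processed pseudogenes, and RefSeq names 15 of them for 8 of the listed genes, 2 for Atp5l, 1 for Atp5f1 and 3 for Cycs among them. Probes of such genes may also bind transcripts of near-identical copies, and the values of the 7 of those 8 genes that were measured are uncertain to that extent (the other is Cox7c). The several probe sets of a gene may share sequence and are not independent measurements. No pseudogene is named for Uqcrb or Atp5g2, but each has 3 probe sets annotated with the same sequence records. The probe sets of Atp5l also carry the same records as one another. Binding to unnamed copies was not tested for any gene.

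The exact two-sided permutation test of 4 mutant against 4 wild-type arrays gave 0.0286 for Atp5l, Cox4i1, Atp5o, Atp5g2 and Uqcrb. This is the smallest p it allows. For Atp5f1, the last of the 6 called genes, it gave 0.0571. Any gene without overlap between the groups gives the smallest value, and 14.7% of all genes had no overlap between mutants and wild types. The test therefore repeats the lack of overlap already given and adds no support to the calls. Atp5l, Cox4i1, Atp5o and Uqcrb were called in mutants against wild types under every alternative setting run.

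Mutants against heterozygotes gave 2 calls among the 38 genes, Cox4i1 and Atp5o, both higher (5.26%, against 2.54% of all genes, of which 1.07% were higher and 1.46% lower). The arrays did not overlap for 4 of the 38, where 9.69% of all genes did not overlap. The 3 higher were Cox4i1, Atp5o and Atp5g2 (7.9%, against 4.04% of all genes). Uqcrc2 was lower (2.63%, against 5.65% of all genes). Of the 38 values, 27 lay above 0 and 11 below, with a median of 0.058, beside -0.0075 over all genes. Without mutant replicate 1 there were 20 above 0 and 18 below, with a median of 0.003. The medians of complexes II to V then went from 0.022, 0.057, 0.064 and 0.056 to 1.2e-04, -0.014, 0.005 and 0.025. At an unadjusted p below 0.05 there were 9 subunit genes (23.7%, against 15.4% of all genes). Both calls depended on the setting: with mutants and heterozygotes fitted alone neither was called. Atp5o lost its call under 12 of 20 alternatives and Cox4i1 under 6 of 20, with limma's adjusted p up to 0.107 and 0.136. Cox4i1 was not called without mutant replicate 1 (limma's adjusted p = 0.0621) or without heterozygote replicate 1, 3 or 4 (0.0634, 0.0622 and 0.0894). Atp5o was not called without mutant replicate 1, 3 or 4, without any 1 heterozygote, or without wild type replicate 2 or 3, and its difference then stayed between 0.196 and 0.253.

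Heterozygotes against wild types gave 0 calls among the 38 genes by limma, with 8 at an unadjusted p below 0.05 (21.1%, against 11.3% of all genes) and 0.135% of all genes called (0.0652% higher and 0.0702% lower). The values leaned downward: 26 lay below 0 and 12 above, with a median of -0.04, beside 0.0065 over all genes. Arrays did not overlap for 7 of the 38 subunit genes, where 8.44% of all genes did not overlap. The 6 lower in heterozygotes were Uqcrb, Cycs, Cox6c, Cox7b, Atp5f1 and Atp5h (15.8%, against 5.26% of all genes). Atp5l alone was higher (2.63%, against 3.18% of all genes). The largest of these differences were those of Uqcrb at -0.29, Atp5l at 0.27 and Cycs at -0.21. All of these are values of the brightest probe sets. Over all probe sets, heterozygotes and wild types did not overlap in 3 of 3 for Uqcrb and 2 of 2 each for Cox6c and Cox7b. For Cycs it was 2 of 3, for Atp5f1 1 of 2, for Atp5h 1 of 3 and for Atp5l 3 of 6.

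The means over the genes of each complex, set to 0 at the wild-type mean, overlapped between all 3 groups in each of complexes II to V. In mutants complex II stood at 0.037 ± 0.07, complex III at -0.0033 ± 0.13, complex IV at 0.027 ± 0.11 and complex V at 0.065 ± 0.08 (SD, n = 4 arrays). In heterozygotes they stood at 0.005 ± 0.03, -0.08 ± 0.04, -0.07 ± 0.05 and -0.0023 ± 0.04. Mutant replicate 1 alone stood at 0.136, 0.175, 0.181 and 0.17 for complexes II to V, the highest value of each. The median differences of mutants against wild types were 0.06, 0.05, -0.02 and 0.02, and without that array 0.01, -0.033, -0.0657 and 0.0024.

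**Figure D4:**
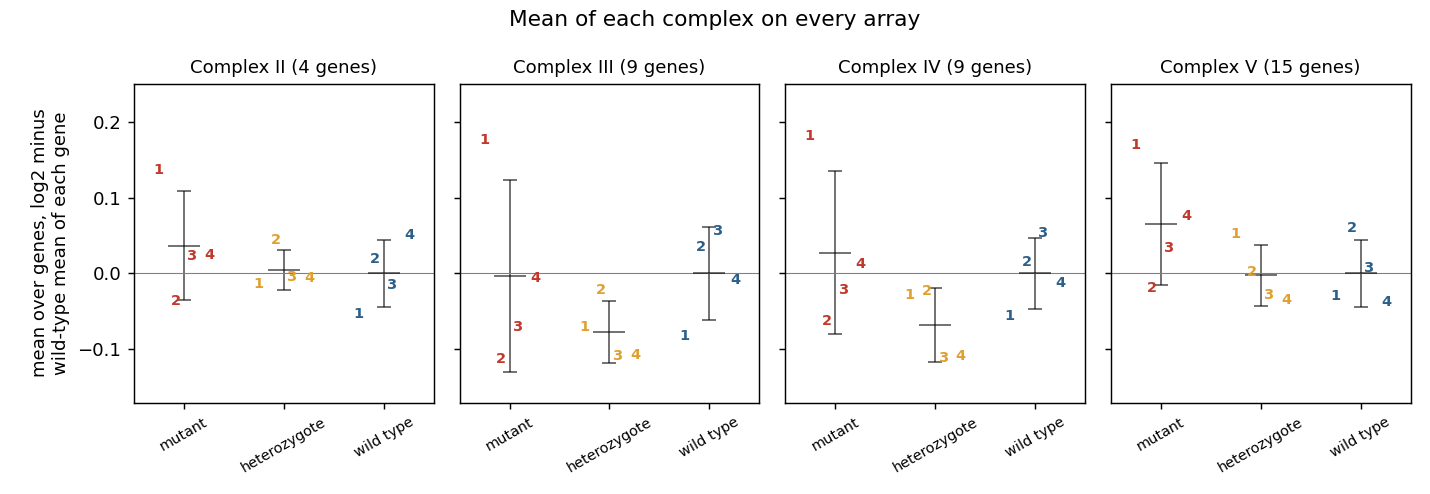
Mean log2 signal over the subunit genes of complexes II, III, IV and V on each array, minus the wild-type mean; digits are replicate numbers and bars the mean ± SD of 4 arrays. Mutant replicate 1 is the highest array in all 4 complexes (0.136 to 0.181), and the other mutants lie between -0.112 and 0.0756.

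The spread of the subunit genes between the mutants depended on replicate 1. Their median SD was 0.0482 in heterozygotes and 0.0669 in wild types, where all genes had 0.075 and 0.0846. In mutants it was 0.0984, beside 0.0995 for all genes, and over the 3 mutants other than replicate 1 it was 0.0562, beside 0.0927. Genes of the smallest spread were Atp5a1 in mutants (SD 0.0187), Uqcrc2 in heterozygotes (0.0095) and Sdhc in wild types (0.0236).

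Genes that make alternative or additional subunits of these complexes included larger differences than the 38. Of 14 such genes, 2 rose and 2 fell in mutants against wild types, with a median of -0.03. Cox6b2, the testis isoform of subunit 6B, read 8.19, 8.58, 8.32 and 7.83 in the mutants, 7.39, 7.54, 7.48 and 7.54 in the heterozygotes, and 7.47, 7.37, 7.23 and 7.16 in the wild types. The mutants lay above all other arrays, by 0.92 ± 0.12 (SE) over wild types, 1.90-fold (limma's adjusted p = 6.8e-04), and by 0.75 over heterozygotes (limma's adjusted p = 0.00724). Cox7a2l, which helps join complexes III and IV into supercomplexes, was 1.43-fold higher in mutants than in wild types (0.52, limma's adjusted p = 0.00141), at 9.20, 9.09, 9.21 and 9.14 against 8.80, 8.71, 8.56 and 8.52. It read 8.97, 8.65, 8.93 and 8.90 in the heterozygotes, which lay below every mutant.

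Cox8b, the isoform of subunit 8 of heart, skeletal muscle and brown fat, read 7.76, 7.59, 7.08 and 8.47 in the mutants, 8.65, 8.90, 8.24 and 8.48 in the heterozygotes, and 9.36, 8.94, 9.36 and 9.21 in the wild types. Every mutant lay below every wild type, by -1.49 ± 0.23 (SE) or 2.82-fold (limma's adjusted p = 0.00161), while Cox8a, the common isoform, differed by 0.06. None of 5 adipocyte markers and none of 6 skeletal muscle markers was called. The adipocyte markers had a median difference of -0.62, and their log2 summed signal ran from 9.36 to 10.44 in mutants, 9.789 to 9.995 in heterozygotes and 9.74 to 11.28 in wild types. The mean of these 5 markers was 8.674, 7.515, 7.284 and 8.242 in wild type replicates 1 to 4, and 7.215, 7.865, 6.946 and 7.169 in mutant replicates 1 to 4. Their part in the Cox8b difference was not tested. The skeletal muscle markers summed to 9.75 to 9.94, 9.79 to 9.89 and 9.67 to 9.86. Usmg5, an additional membrane subunit of the ATP synthase, fell by 0.33 (1.26-fold lower, limma's adjusted p = 0.00833), at 11.84, 11.56, 11.50 and 11.63 in the mutants against 11.92, 12.01, 12.03 and 11.91 in the wild types. Its heterozygotes, at 11.72, 11.58, 11.62 and 11.65, lay below the wild types too.

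**Figure D5:**
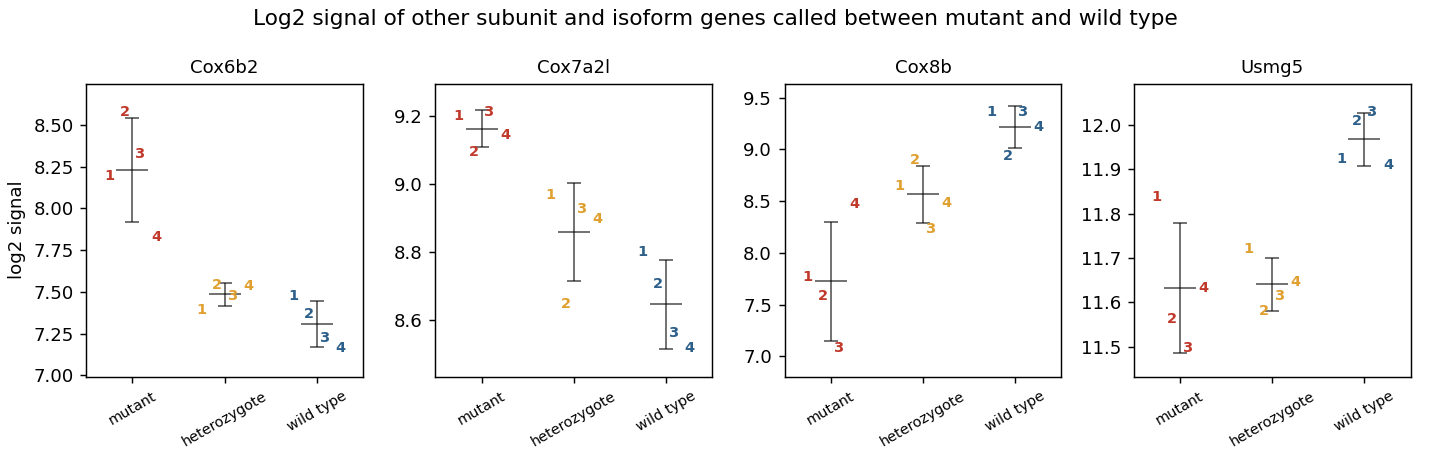
Log2 signal on each array for Cox6b2, Cox7a2l, Cox8b and Usmg5, additional subunits or isoforms called in mutants against wild types; digits are replicate numbers and bars the mean ± SD of 4 arrays. Cox6b2 and Cox7a2l have all mutants above all other arrays, and Cox8b and Usmg5 have all mutants below all wild types.

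Further genes of mitochondrial respiration were called in mutants against wild types in both directions, beside a background of 2.96% of all genes higher and 6.69% lower. Of 36 measured assembly factors of complexes II to V, 0 rose and 4 fell: Cox11 and Cox20, which serve the copper centres and subunit 2 of complex IV, Coa3 and the ATP synthase factor Atpaf2, at -0.30, -0.27, -0.28 and -0.22. Coa3 lost its call without wild type replicate 4 (limma's adjusted p = 0.0571), and Atpaf2 without wild type replicate 2 or 4 (0.0536 and 0.0639). With mutants and wild types fitted alone neither was called (limma's adjusted p = 0.0597 and 0.0569). Of 34 complex I subunits 2 rose and 4 fell, with Ndufc1 at -0.45, Ndufc2 at -0.30 and Ndufa7 at 0.31. Of the other falls, Ndufs7 lost its call under 9 of 20 alternatives and Ndufa2 under 8 of 20. Ndufa7 lost its call without wild type replicate 3 or 4 (limma's adjusted p = 0.0515 and 0.0695) and with those 2 groups alone (0.0511). Of 18 citric acid cycle enzymes 1 rose and 3 fell. Idh3g, among those that fell, lost its call under 15 of 20 alternatives. Sucla2, a subunit of the succinyl-CoA synthetase that acts between the mutase and complex II, read 10.37, 10.37, 10.43 and 10.48 in the mutants, 10.55, 10.61, 10.46 and 10.61 in the heterozygotes, and 10.80, 10.85, 10.92 and 10.99 in the wild types. It was lower in mutants (-0.48, 1.39-fold lower) and in heterozygotes (-0.33, limma's adjusted p = 0.0392) than in wild types, though the latter call was lost under 11 of 20 alternatives (without mutant replicate 1 or 2, any 1 heterozygote, or wild type replicate 2, 3 or 4 among them; adjusted p up to 0.15 by limma). Dld, the dihydrolipoamide dehydrogenase shared by the ketoacid dehydrogenase complexes, fell by 0.26 and Idh2 rose by 0.19. Dld lost its call without mutant replicate 2 or wild type replicate 2 or 4 (limma's adjusted p up to 0.065) and with those 2 groups alone (0.0626). Of 15 transcriptional regulators, 0 rose and 2 fell: the coactivator Ppargc1a at -0.34 (limma's adjusted p = 0.0115) and the mitochondrial transcription factor Tfb2m at -0.30 (limma's adjusted p = 0.00983). With the mean of its probe sets Ppargc1a was not called (limma's adjusted p = 0.147). The 6 listed mitochondrially encoded subunits had no probe set with a symbol of their own and are not analysed here.

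Some markers of kidney cell types were called in mutants against wild types as well, beside 2.96% of all genes higher and 6.69% lower. None of the markers was called in heterozygotes against wild types. Of 18 proximal tubule markers 0 rose and 4 fell in mutants against wild types (Cubn, Slc22a7, Acy3 and Kap), and their log2 summed signal ran from 16.10 to 16.44 in mutants, 16.42 to 16.51 in heterozygotes and 16.52 to 16.55 in wild types. The 18 had a median difference of -0.09, and the uncalled ones lay on both sides of 0, from -0.24 (Lrp2) to 0.52 (Slc7a13). Kap differed the most, at -2.65, and its part in the falling sum was not tested. Of 8 distal convoluted and connecting tubule markers 4 fell, with sums of 13.47 to 13.96, 14.07 to 14.25 and 14.17 to 14.20. Of 12 endothelial markers 5 fell, with sums of 12.64 to 13.03, 13.04 to 13.26 and 13.18 to 13.33. Of 7 podocyte markers 4 fell, with sums of 11.55 to 11.72, 11.79 to 11.88 and 11.83 to 11.93. Of 10 macrophage markers 2 rose and 1 fell, of 8 fibroblast and smooth muscle markers 2 fell, and none of 6 thick ascending limb markers was called. Principal cell markers gave 1 rise and 1 fall of 7, and intercalated cell markers 1 rise and 2 falls of 7. The part of these markers in the subunit genes' differences was not tested. Within the mutants, the mean of the proximal tubule markers was highest in replicate 1, at 11.82, and lowest in replicate 3, at 11.25.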

How the data were processed

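Kidney RNA of 12 samples (3 groups of 4) was measured on Affymetrix mouse gene arrays, as named in the sample descriptions (the labelling text names the human array). The authors deposited log2 signals that, by the submitters' processing notes, came from RMA in Affymetrix Expression Console 1.2.1; for the genome build, the sources used here name none. The table held 35552 probe sets and 0 missing values. RMA summarises probes and equalises array distributions, so a shift shared by all genes would be removed. No depth applies, and the 4 arrays a group limit the precision.

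Of the probe sets, 21785 carry 1 symbol and 1621 several (left out); 21694 matched RefSeq by Entrez identifier, changing 0 symbols. The brightest probe set stood for each of 19934 genes. One linear model over 3 groups was fitted with limma 3.58.1 (R 4.3.3; 9 residual and 4.41 prior degrees of freedom), with Benjamini-Hochberg adjustment per comparison and a threshold of 0.05. The pipeline was tested on simulated data. Python 3.11.15 searched promoters. Members and gene lists were chosen with earlier results of these data known. Array values are given for each gene called in any comparison, the gene with the smallest p of each complex and comparison, and Atp5g1 to Atp5g3; for other lists, counts and at most 3 called genes with the largest differences, beside which Cycs, Uqcrc2, Cox6c and further genes were named after their values were seen. Alternatives left out each array, restricted the fit to 2 groups, and changed the scaling, the low-signal filter, the probe-set rule, the variance model and the array weights. The checks of other probe sets, of the called genes of related lists under these alternatives, and of the medians over all members without mutant replicate 1 were added after seeing the data.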

Additional observations from a re-analysis of the deposited data

Results flagged for a closer look

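Among 126 sets of 4 arrays (each subunit gene and each complex mean in each group), 4 had a single array far from the others, where about 6.3 would be flagged by chance. The measure is the gap to the nearest array over the whole range, set against Dixon's critical value for 4 samples. In the mutants it was 0.853 for Cox8a, where replicate 1 read 12.79 and the others 12.66 to 12.68, and 0.874 for Atp5j2, where replicate 1 read 12.07 and the others 11.82 to 11.85. In the heterozygotes the mean of complex II gave 0.833, through replicate 2 at 0.044 against -0.014 to -0.004 (relative to the wild-type mean). In the wild types Cox6c gave 0.847, through replicate 3 at 13.72 against 13.65 to 13.66.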

How the results depend on the processing

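In mutants against wild types, 4 to 8 subunit genes were called over 20 alternatives: 8 without mutant replicate 1 or with quantile scaling, and 4 without wild type replicate 3 or 4. In mutants against heterozygotes, where 2 were called, leaving out 1 array gave 0 to 2, fitting those 2 groups alone gave 0, and quantile scaling gave 0. In heterozygotes against wild types array weights gave 1 call, Uqcrb (adjusted p = 0.0372 by limma), and all others 0. Quantile scaling moved the median of complex II to -0.018 in mutants against wild types and to -0.0537 against heterozygotes; the cause was not tested. Arrays with the same replicate number did not deviate together (correlations of -0.239 to 0.168 over 12 pairs, 1 over 0.1), so no pairing by number was seen. A pairing with only a weak shared deviation would be missed this way. With the replicate number as a block, 5, 1 and 0 genes were called in mutants against wild types, mutants against heterozygotes and heterozygotes against wild types. With 4 arrays a group, small differences are not resolved, and the description numbers run group by group, so array order cannot be told apart from genotype.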
